A study of Homo sapiens with 26 samples.

Results

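This report describes 36 genes of ribosome biogenesis and the nucleolus in 3 human pancreatic ductal adenocarcinoma cell lines in which the transcription factor HNF4A was induced or repressed. The genes were chosen by symbol as a functional module, without a measured value in the rule but with earlier results of these data known. Each was matched to 1 Ensembl identifier in each count table. They make up 36 of the 62778 identifiers that occur in any of the tables, and all 36 passed the filter on low counts in each of the 3 lines. They fall into 8 roles: box C/D and box H/ACA small nucleolar ribonucleoproteins (snoRNPs), the small subunit processome, late small subunit factors, the PeBoW complex, large subunit factors, RNA polymerase I, and nucleolar matrix and multifunction proteins.

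Ribosomes are assembled in the nucleolus. RNA polymerase I transcribes a long precursor there, snoRNPs and the processome modify and cut it into the small and large subunit rRNAs, and the maturing subunits are exported to the cytoplasm. The genes for these factors are transcribed by RNA polymerase II, many of them are textbook targets of MYC, and their messenger levels usually go with the growth rate of a cell. HNF4A is a nuclear receptor of the hepatocyte and gut epithelium, and it has 2 promoters, named P1 and P2, whose products differ at the amino terminus.

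The samples were 26 libraries of poly(A) RNA. Panc10.05 and BxPC3 cells were given doxycycline to induce an isoform of promoter P1, labelled P1-a2, or of promoter P2, labelled P2-a8, and each line had a control labelled NC, with GFP (Panc10.05) or EV (BxPC3) added in the titles. Panc10.05 cells received 25 ng/mL of doxycycline for P1-a2 and NC but 12.5 ng/mL for P2-a8, and all BxPC3 cells received 500 ng/mL. In AsPC-1 cells (ASPC1 in the labels), CRISPR interference repressed P1 (guides sgP1E and sgP1J), P2 (sgP2D and sgP2G) or both promoters (sgDual2 and sgDual3), and sgNC was the control guide. Each induced group, each guide and sgNC had 2 libraries, so that sgP1, sgP2 and sgDual had 4 libraries each. Whether the engineered cells are single clones or pools, and whether the 2 libraries of a group came from separate cultures, is not given in the sources used here, and the p-values then measure only the spread between these libraries, which may be technical.

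The libraries held 26079388 to 50662077 counts, of which these genes took 0.449% to 0.859%, and the lowest count of any of them in any library was 206. HNF4A, the targeted gene, was at 0.058 to 0.24 CPM in Panc10.05 NC (counts relative to the library total, scaled within each table by TMM), 10.7 to 13 under P1-a2 and 37.6 in both libraries under P2-a8. In BxPC3 it was at 0.464 to 1.08, 9.76 to 11.6 and 12.6 to 14.2 CPM in the same order, and in AsPC-1 at 206 to 219.8 CPM with sgNC, 109 to 146 with sgP1, 76.7 to 93.9 with sgP2 and 3.19 to 13.6 with sgDual. In Panc10.05 the isoform, the dose of doxycycline and the level of HNF4A RNA differ together between P1-a2 and P2-a8 and cannot be told apart. All 6 epithelial markers checked were expressed in each line (summed level 5824 to 18031 CPM), whereas of 10 markers of immune, endothelial and fibroblast cells 8, 6 and 9 stayed under 1 CPM in every library of Panc10.05, BxPC3 and AsPC-1.

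The start regions of these genes are shown first, because MYC and its relatives bind the palindrome CACGTG, the canonical E-box, and MYC RNA itself differed between several of the groups. RefSeq windows from 250 bases before to 50 bases after the start (GRCh38.p14) were matched by symbol for 30 of the 36 genes, with 38 windows in all. CACGTG, which reads the same on both strands, occurred in 16 of the 38 windows (42.1%), each of a different gene, against 7.26% of all 35116 windows of the same length and 8.34% of the 22199 windows of coding genes. With the 250 bases before the start alone the share was 15.8% against 6.34%. Of the 17 E-boxes, 7 lay before the start in 6 genes, 1 lay across it in RRP9 and 9 lay after it in 9 genes. Below are 8 of them, chosen to show the small subunit factors, a box C/D, a box H/ACA and a PeBoW gene, with the E-box in capitals and the strand of the gene read 5′ to 3′.
UTP4: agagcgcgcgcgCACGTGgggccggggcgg
WDR43: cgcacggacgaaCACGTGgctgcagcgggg
RRP9: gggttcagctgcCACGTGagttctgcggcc
BYSL: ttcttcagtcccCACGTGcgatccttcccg
LYAR: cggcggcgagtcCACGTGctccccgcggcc
FBL: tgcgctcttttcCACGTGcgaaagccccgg
NOP10: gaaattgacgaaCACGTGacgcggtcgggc
PES1: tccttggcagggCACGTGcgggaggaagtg

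The stretches lie at UTP4 chr16:69132621-69132650 (plus strand), WDR43 chr2:28894658-28894687 (plus strand), RRP9 chr3:51941892-51941921 (minus strand), BYSL chr6:41921515-41921544 (plus strand), LYAR chr4:4290068-4290097 (minus strand), FBL chr19:39846356-39846385 (minus strand), NOP10 chr15:34343130-34343159 (minus strand) and PES1 chr22:30591880-30591909 (minus strand), all in GRCh38.p14. In UTP4, LYAR and NOP10 the E-box begins 16, 64 and 11 bases before the start. That of RRP9 begins 5 bases before the start and runs across it. In WDR43, BYSL, FBL and PES1 its first letter is base 4, 29, 7 and 14 after the start. NOP10 has another E-box 170 bases before its start. The core AAGTCCA of the HNF4 motif, searched separately on both strands, occurred in 1 of the 38 windows (2.63%, PES1) against 3.39% of all windows. These matches describe letters in a fixed window and say nothing about binding. In the contrasts described later, the 16 genes with an E-box and the 14 without one had median log2 differences of 0.28 and 0.41 for P1-a2 against NC in Panc10.05, 0.16 and 0.15 for the same contrast in BxPC3, and -0.52 and -0.52 for sgDual against sgNC in AsPC-1.

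Per length, the levels of the 36 genes in control cells spanned 103-fold to 166-fold. Nucleophosmin NPM1, an abundant chaperone of the nucleolus, stood highest in all 3 lines, at 337, 253 and 367 RPKM (CPM per kilobase of exon) in Panc10.05, BxPC3 and AsPC-1, and NOP2 lowest, at 3.19, 2.46 and 2.21 RPKM. The median gene was at 28.6, 18.1 and 24.5 RPKM. Of the 35 neighbouring pairs in the order of levels, 11, 13 and 24 overlapped between their 2 control libraries, so neighbours in the middle of the order are not separated by these data. Some levels are uncertain for reasons of annotation. NOP2 shares 54.4% of its exonic bases with another coding gene on the same strand and PPAN 56.0% with PPAN-P2RY11, 12 of the genes overlap an exon on the opposite strand, NPM1 has 45 named pseudogenes, and the settings for strand and for reads with several matches are not given in the sources used here. In addition 8 of the genes, among them GNL3, NOP56, NOP58 and NCL, carry 27 snoRNA genes within them on the same strand.

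Summed over the 36 genes, the level was 6299 ± 6.01 CPM (SD, n = 2) in Panc10.05 NC, 8543 ± 55.9 CPM with P1-a2 and 6642 ± 212 CPM with P2-a8. In BxPC3 the sums were 4727 ± 47.1, 5191 ± 144 and 4633 ± 78.3 CPM in the same order. In AsPC-1 they were 7269 ± 699.6 CPM with sgNC (n = 2), 6742 ± 892 CPM with sgP1, 6820.4 ± 469.6 CPM with sgP2 and 5021 ± 186 CPM with sgDual (n = 4 libraries each). These 4 libraries are 2 of each of 2 guides, so their SD also holds the difference between guides. For sgP1 the sums were 6536.3 and 5670.9 CPM with sgP1E and 7817.4 and 6943.8 CPM with sgP1J. Both P1-a2 libraries were above every other library of their line, and all 4 sgDual libraries were below every other AsPC-1 library. NPM1 and nucleolin (NCL) alone made 34.4% to 42.8% of these sums.

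**Figure D1:**
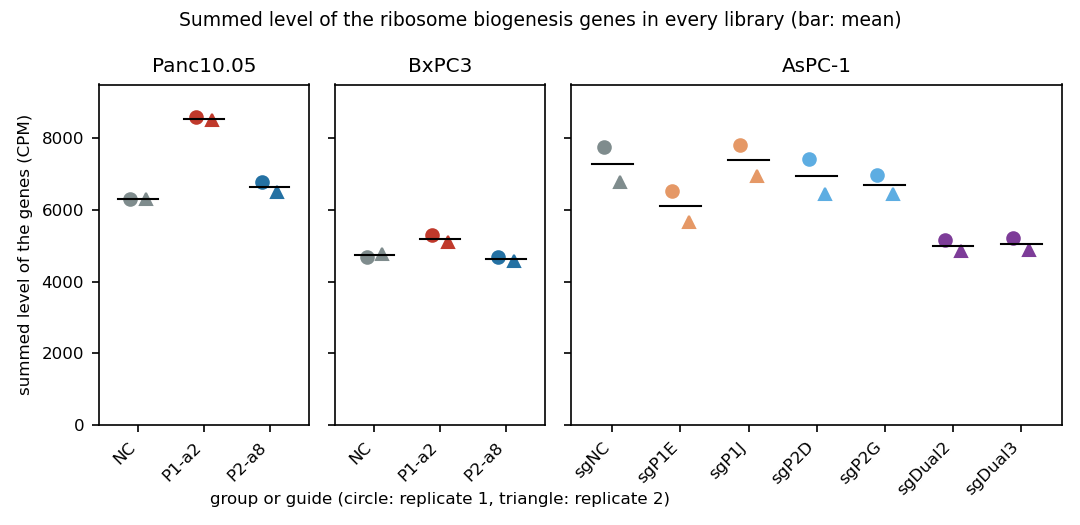
Summed level of the 36 genes in each library (CPM, vertical axis from 0), by cell line and by induced isoform or guide; circles are replicate 1, triangles replicate 2 and bars their mean. The P1-a2 libraries are the highest of Panc10.05 and of BxPC3, and the sgDual libraries, at 4839.9 to 5210.3 CPM, are the lowest of AsPC-1.

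In Panc10.05 cells, ribosome biogenesis genes were mostly higher under P1-a2 than in NC. With edgeR's quasi-likelihood test and Benjamini-Hochberg adjustment over all tested genes (threshold 0.05), 28 of the 36 rose and 1 fell, against 62.0% of all tested genes past the threshold in either direction (31.5% higher and 30.5% lower). The median log2 difference of the 36 was 0.38 and that of all genes 0.02. The changes were unequal: UTP4, a subunit of the processome, rose by 1.57 on the log2 scale, RRP12, a small subunit export factor, by 1.21, and NOP14, of the processome too, by 0.26. All 7 processome genes, all 6 nucleolar matrix genes and both RNA polymerase I genes rose, as did 3 of 4 late small subunit genes, 2 of 3 PeBoW genes, 2 of 3 box C/D genes and 2 of 4 box H/ACA genes. Large subunit factors were split, with 4 of 7 higher and LAS1L lower. In bulk RNA, a change in the RNA per cell and a change in the share of cells that express a gene cannot be told apart.

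Under P2-a8 the same genes moved in both directions in Panc10.05. Against NC, 9 rose and 8 fell, with 46.2% of all tested genes past the threshold (23.7% higher, 22.5% lower), and the median log2 difference was 0.03. UTP4 (0.66), WDR43 (0.53) and POLR1A (0.46) had the largest rises, and LAS1L (-0.63), FBL (-0.46) and GAR1 (-0.35) the largest falls on the log2 scale. Compared directly, 33 of the 36 were higher with P1-a2 than with P2-a8 and none was lower, against 22.2% and 24.7% of all tested genes (46.9% in either direction). The median log2 difference was 0.40, and UTP20 (0.09 ± 0.07 standard error, adjusted p = 0.298), RRP1B (0.13 ± 0.07 standard error, adjusted p = 0.112) and BOP1 (-0.10 ± 0.06 standard error, adjusted p = 0.155) did not pass. Both contrasts against NC use the same 2 NC libraries. The libraries of P1-a2 lay entirely above those of P2-a8 for 34 of the 36 genes, where 36.0% of all tested genes did so, and above those of NC for 30 of the 36, where 40.9% did so.

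**Figure D2:**
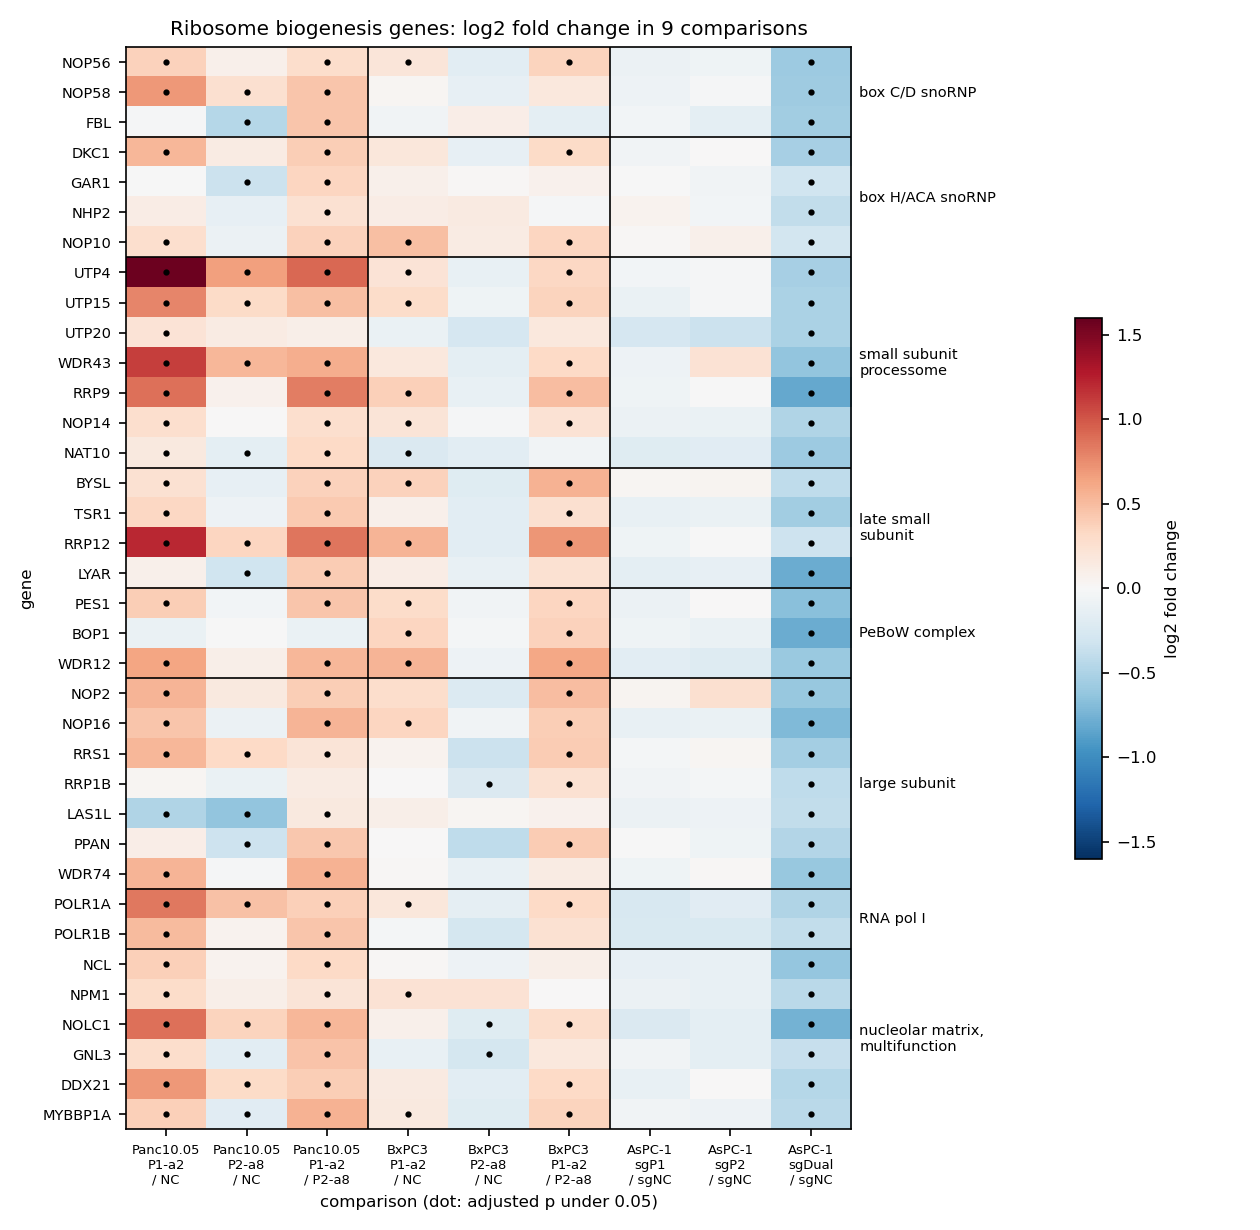
Log2 fold change of each of the 36 genes (vertical, ordered by role) in 9 comparisons (horizontal), from blue (lower) to red (higher), with a dot where the adjusted p is under 0.05. The column of P1-a2 against P2-a8 has 33 dots in Panc10.05 and 23 in BxPC3, all on red, and the column of sgDual against sgNC has 36 dots, all on blue.

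Position on the chromosome moved with some of the Panc10.05 values. For each of the 36 genes, the median log2 difference was taken over the other tested coding genes that start at most 2 Mb away, a look added after the values had been seen. For P1-a2 against NC, the neighbours of UTP4 on chromosome 16 had a median of 0.57, with 54 of 74 past the threshold upward, beside 1.57 for UTP4 itself. The neighbours of WDR43 on chromosome 2 had 0.77 (32 of 39 upward) beside 1.11, and those of POLR1A on the same chromosome 0.56 (22 of 29 upward) beside 0.84. These 3 genes thus lie in stretches that were higher as a whole. UTP20, in contrast, had neighbours at -0.56 and was itself at 0.21. Over all 36 genes, 33 were above the median of their neighbours, the median excess was 0.38, and the median of the neighbour medians was 0.00. For P1-a2 against P2-a8 all 36 were above their neighbours, by a median of 0.44. In BxPC3 and AsPC-1 no gene had neighbours with a median beyond 0.5 in any contrast. For P2-a8 against NC in Panc10.05 the neighbours of UTP4, WDR43 and POLR1A were at 0.37, 0.45 and 0.41, beside 0.66, 0.53 and 0.46 for the genes. LAS1L went the other way: it alone had neighbours with a median above 0.5 in this contrast, and was itself at -0.63. Of all 36 genes, 23 were above and 13 below the median of their neighbours. The part of these stretches in the results was not tested.

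BxPC3 showed the same contrast between the isoforms at a smaller size. Against NC, 15 of the 36 rose under P1-a2 and NAT10 fell, where 32.0% of all tested genes passed (17.1% higher, 14.9% lower), and the median log2 difference was 0.15. RRP12 (0.54), WDR12 (0.54) and NOP10 (0.48) rose most. All 3 PeBoW genes, 4 of 7 processome genes and 2 of 4 late small subunit factors rose, beside 1 of 2 RNA polymerase I genes, 1 of 7 large subunit factors, 1 of 3 box C/D genes, 1 of 4 box H/ACA genes and 2 of 6 matrix genes. The count of 16 fell to 7 without NC replicate 1, to 10 without P1-a2 replicate 1 and to 10 without P1-a2 replicate 2.

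Under P2-a8 in BxPC3, 3 of the 36 fell against NC and none rose, with 6.99% of all tested genes past the threshold (4.30% higher, 2.69% lower). GNL3 (-0.29), RRP1B (-0.24) and NOLC1 (-0.20) were the 3 genes, 16 of the 36 had an unadjusted p under 0.05, and DESeq2 called 2. That count went to 0 without NC replicate 2 or without P2-a8 replicate 1, and to 6 without P1-a2 replicate 2. It was 8 when libraries were scaled by total counts alone and 7 with no filter on low counts. The direct comparison gave more calls: 23 of the 36 were higher with P1-a2 than with P2-a8 and none was lower, against 11.6% and 10.8% of all tested genes (22.5% in either direction), with a median log2 difference of 0.31. Both P1-a2 libraries were above both P2-a8 libraries for 29 of the 36, which held for 29.5% of all tested genes. The difference in HNF4A RNA between these 2 groups did not pass (log2 -0.33 ± 0.17 standard error, adjusted p = 0.217), and the dose of doxycycline was the same.

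The responses differed between Panc10.05 and BxPC3. Cell line, dose of doxycycline, control (GFP or EV), count table and the size of the rise in HNF4A RNA differ together here. They cannot be told apart. In a joint fit of the 12 libraries, the signed difference between lines (Panc10.05 minus BxPC3) in P1-a2 against NC passed for 21 of the 36. It was positive for 19 of them and negative for 2, LAS1L and BOP1 (36.4% of all tested genes passed, 16.3% positive and 20.1% negative). A negative value can be a fall in Panc10.05 and need not be a smaller response. For P2-a8 against NC the difference passed for 15 (23.5% of all genes, 11.5% positive and 11.9% negative), 12 positive and 3 negative. For P1-a2 against P2-a8 it passed for 12 (22.3% of all genes, 8.81% positive and 13.5% negative), 11 positive and 1, BOP1, negative. The last count fell to 6 without Panc10.05 P1-a2 replicate 1, to 5 without P1-a2 replicate 2 and to 5 without P2-a8 replicate 2 of that line. UTP4 and WDR43 had the largest differences for P1-a2 against NC, at 1.37 ± 0.08 (standard error, adjusted p = 1.29e-11) and 0.96 ± 0.10 (standard error, adjusted p = 4.44e-08) on the log2 scale, and they are among the genes of Panc10.05 whose chromosomal neighbours were also higher. Across the 36 genes the log2 differences of P1-a2 against P2-a8 had a Pearson r of 0.39 and a Spearman rho of 0.335 between the 2 lines, which share no library. Over 15476 genes the same values were 0.221 and 0.268. For P1-a2 against NC, r was 0.328 and rho 0.344 over the 36 genes, and 0.482 and 0.318 over all 15476. For P2-a8 against NC, r was -0.232 and rho -0.186 over the 36 genes, and 0.453 and 0.121 over all. These are descriptions across genes, which are not independent replicates.

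**Figure D3:**
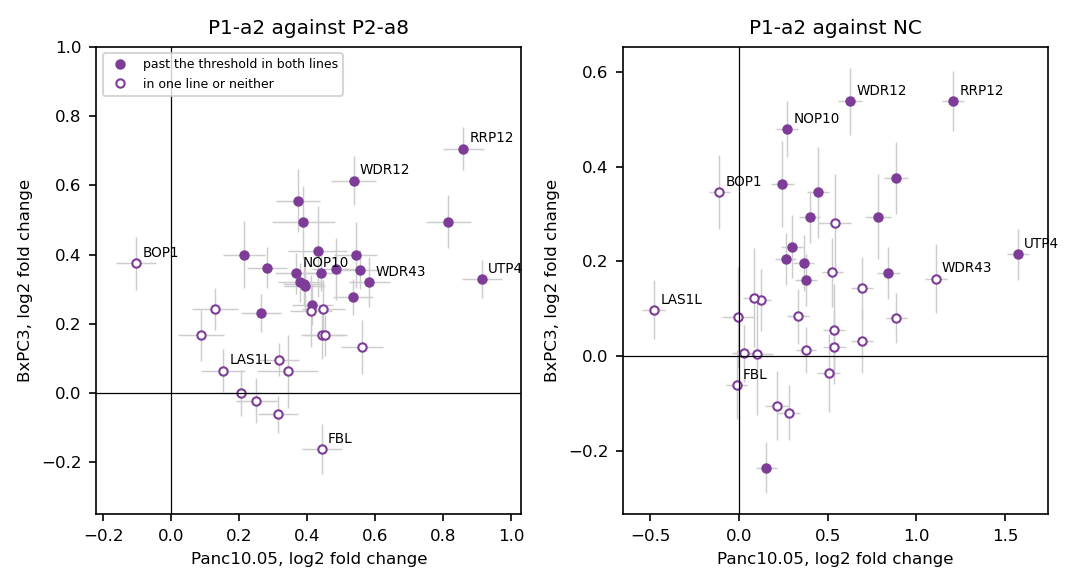
Log2 differences of the 36 genes in Panc10.05 (horizontal) and BxPC3 (vertical), for P1-a2 against P2-a8 on the left and P1-a2 against NC on the right; each point is 1 gene with its SE as thin bars, and filled points passed the threshold in both lines. On the left 21 filled points all lie above 0 on both axes, and on the right NAT10 passed in both lines with opposite signs.

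In AsPC-1 cells, repression of both promoters went with lower levels of every gene of the set. All 36 fell with sgDual against sgNC, where 35.6% of all tested genes passed and 17.8% fell, and the median log2 difference was -0.53. The values ran from -0.82 for RRP9, -0.80 for BOP1 and -0.79 for LYAR to -0.29 for NOP10. For all 36 genes, each of the 4 sgDual libraries was below both sgNC libraries, which held for 29.7% of all tested genes. The number past the threshold dropped to 11 without sgNC replicate 1, the higher of the 2 control libraries. Against the single-promoter guides the genes were lower as well: 33 of 36 fell against sgP1 (38.3% of all genes passed, 19.7% lower, median -0.44) and 34 of 36 against sgP2 (46.4%, 23.5% lower, median -0.46). The 3 contrasts share the sgDual libraries. UTP20 and POLR1B passed in neither of these 2 comparisons, nor did POLR1A against sgP1.

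The guides to a single promoter gave no call among the 36, and HNF4A itself did not pass with sgP1 (-0.72 ± 0.36 standard error, adjusted p = 0.615) or sgP2 (-1.30 ± 0.36 standard error, adjusted p = 0.0751) against sgNC. Its RNA was nonetheless lower in each sgP1 library (109 to 146 CPM) and sgP2 library (76.7 to 93.9 CPM) than in both sgNC libraries (206 to 219.8 CPM). The spread in this test is 1 estimate over all AsPC-1 groups, sgDual included. With sgP1 against sgNC edgeR called 0 of the 36 (0.265% of all tested genes), 1 had an unadjusted p under 0.05, DESeq2 called 0, and the median log2 difference was -0.08. The difference was negative for 32 of the 36 (median of all genes 0.01), and this contrast pools 2 guides that differed from each other. With sgP2 against sgNC edgeR called 0 (3.42% of all genes), 2 had an unadjusted p under 0.05, DESeq2 called 0, and the median was -0.07. Here 27 of the 36 were negative (median of all genes 0.00). The lack of calls does not show that the genes were unchanged. Between sgP2 and sgP1 edgeR called 0 (4.30% of all genes), with 1 at an unadjusted p under 0.05 and 1 by DESeq2. Between the 2 guides of sgP1, the log2 difference of sgP1E against sgP1J was negative for 35 of the 36. Its median was -0.29, and that of all genes 0.00. Past the threshold, 6 of the 36 were lower with sgP1E than with sgP1J (14.5% of all genes passed, 6.70% lower), namely FBL, GAR1, LYAR, WDR74, NPM1 and GNL3, from -0.49 for LYAR to -0.29 for GAR1 on the log2 scale. That count was 1 without sgP1E replicate 2 and 3 without sgP1J replicate 1. With no library left out, the alternatives gave 8 to 26 calls for this pair of guides. Without guide sgP1J, 3 genes passed for sgP1 against sgNC, and 1 passed without sgP1J replicate 1. Leaving out sgP1E replicate 1 gave 1 call for sgP2 against sgP1. The guide pairs of sgP2 (1.69% of all genes called) and sgDual (0.883%) gave 0 calls among the 36 with edgeR, with 2 and 1 at an unadjusted p under 0.05, and DESeq2 called 1 and 0.

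The replicate number moved with these genes in AsPC-1. In each of the 7 arms, 31 to 36 of the 36 genes were higher in the library numbered 1 than in the library numbered 2, with a median log2 difference of 0.11 in sgDual3 to 0.26 in sgP1E. The labels do not say what the numbers stand for. Within number 1 the median log2 difference of sgDual against sgNC was -0.59, within number 2 it was -0.47, and all 36 genes were lower in each. For sgP1 the within-number medians were -0.10 and -0.09, and for sgP2 -0.09 and -0.03.

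The values of single genes follow, by role. In each group of 2 the value of replicate 1 comes first, and in the AsPC-1 groups of 4 the values of sgP1E, sgP2D or sgDual2 come before those of the other guide.

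Box C/D snoRNPs guide the methylation of ribose in rRNA. NOP56, a core scaffold protein of the particle, stood at 239 and 242 CPM in NC, 318 and 302 CPM with P1-a2 and 259.8 and 249.9 CPM with P2-a8 in Panc10.05. In BxPC3, NOP56 was at 262 and 288 CPM in NC, 319.8 and 311 CPM with P1-a2 and 241 and 250.2 CPM with P2-a8. In AsPC-1, NOP56 was at 304 and 252 CPM with sgNC, 258, 211, 309.9 and 265 CPM with sgP1, 286, 243, 285 and 247 CPM with sgP2 and 193, 165, 204 and 179.7 CPM with sgDual. Its P1-a2 libraries lay above the other libraries in both induced lines, and its sgDual libraries below all others. NOP56 rose under P1-a2 by 0.37 ± 0.06 (standard error, adjusted p = 7.44e-07) in Panc10.05 and 0.20 ± 0.06 (standard error, adjusted p = 0.0255) in BxPC3 on the log2 scale and fell with sgDual (-0.58 ± 0.13 standard error, adjusted p = 0.00278). NOP58, its partner in the scaffold, rose by 0.69 ± 0.06 (standard error, adjusted p = 3.43e-13) in Panc10.05 but was at 0.03 ± 0.07 (standard error, adjusted p = 0.768) in BxPC3. FBL, the methyltransferase fibrillarin, differed in order between the lines. It was at 221 and 237 CPM in NC, 230.2 and 224 CPM with P1-a2 and 165 and 169 CPM with P2-a8 in Panc10.05. In BxPC3, FBL was at 233 and 224 CPM in NC, 233 and 205 CPM with P1-a2 and 258 and 232 CPM with P2-a8. In Panc10.05 the P1-a2 and NC libraries overlapped and P2-a8 was lower, with -0.46 ± 0.06 (standard error, adjusted p = 2.23e-08) for P2-a8 against NC, whereas the 3 BxPC3 groups overlapped. The difference between lines passed for P1-a2 against P2-a8 (0.61 ± 0.09 standard error, adjusted p = 3.7e-05), the largest of the 36. With sgDual, FBL was at 131, 130.5, 138 and 126 CPM against 199.7 and 186 CPM with sgNC and fell by 0.55 ± 0.10 (standard error, adjusted p = 0.000509).

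Box H/ACA snoRNPs carry out pseudouridylation, and their proteins also belong to telomerase. DKC1, the pseudouridine synthase dyskerin, was at 125 and 124 CPM in NC, 183 and 175 CPM with P1-a2 and 142 and 131 CPM with P2-a8 in Panc10.05. In BxPC3, DKC1 was at 153 and 173 CPM in NC, 187 and 181 CPM with P1-a2 and 140.1 and 157 CPM with P2-a8. In AsPC-1, DKC1 was at 247 and 199 CPM with sgNC, 219, 166, 254 and 219 CPM with sgP1, 248, 200.3, 244 and 204 CPM with sgP2 and 162, 141, 166 and 147 CPM with sgDual. The P1-a2 libraries were the highest of each induced line. The rise against NC passed in Panc10.05 (0.53 ± 0.06 standard error, adjusted p = 4.73e-10) and not in BxPC3 (0.18 ± 0.07 standard error, adjusted p = 0.0883), and DKC1 fell with sgDual (-0.53 ± 0.14 standard error, adjusted p = 0.00935). NOP10, the smallest protein of the particle, was at 97.6 and 102 CPM in NC, 119.5 and 121 CPM with P1-a2 and 96.7 and 89.8 CPM with P2-a8 in Panc10.05. In BxPC3, NOP10 was at 64.2 and 63.4 CPM in NC, 88.1 and 89.9 CPM with P1-a2 and 67.6 and 72.4 CPM with P2-a8. In AsPC-1, NOP10 was at 67 and 58.6 CPM with sgNC, 63.8, 61.4, 61.3 and 67.8 CPM with sgP1, 71.1, 62.8, 68.5 and 63.8 CPM with sgP2 and 54.9, 55.3, 46.2 and 48.7 CPM with sgDual. It was the only one of the 4 to rise against NC in both lines, by 0.27 ± 0.06 (standard error, adjusted p = 0.000197) and 0.48 ± 0.06 (standard error, adjusted p = 0.000117), and its fall with sgDual was the smallest of the 36 (-0.29 ± 0.09 standard error, adjusted p = 0.0172). GAR1 stood at 20.4 and 24 CPM in NC, 21.6 and 22.5 CPM with P1-a2 and 17.2 and 17.7 CPM with P2-a8 in Panc10.05 and fell under P2-a8 (-0.35 ± 0.09 standard error, adjusted p = 0.00158). For NHP2 the lines differed in P2-a8 against NC (-0.27 ± 0.09 standard error, adjusted p = 0.0299), with -0.13 in Panc10.05 and 0.14 in BxPC3, neither past the threshold alone, and this call was lost in 10 of 16 alternatives.

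The small subunit processome assembles on the nascent precursor. UTP4, of its earliest module, stood at 104 and 96.1 CPM in NC, 302 and 293 CPM with P1-a2 and 161 and 155 CPM with P2-a8 in Panc10.05. In BxPC3, UTP4 was at 103 and 107 CPM in NC, 123 and 121 CPM with P1-a2 and 97.3 and 96.9 CPM with P2-a8. In AsPC-1, UTP4 was at 148 and 122 CPM with sgNC, 128, 107, 165 and 125 CPM with sgP1, 145, 124, 139 and 125 CPM with sgP2 and 99.3, 87.6, 98.3 and 88.1 CPM with sgDual. The 3 Panc10.05 groups did not overlap and were ordered NC, P2-a8, P1-a2, whereas in BxPC3 the order was P2-a8, NC, P1-a2. UTP4 had the largest rise of the 36 in Panc10.05 (1.57 ± 0.06 standard error, adjusted p = 8.56e-25, beside 0.57 for its chromosomal neighbours) and rose in BxPC3 by 0.22 ± 0.05 (standard error, adjusted p = 0.0108). WDR43, of the same module, was at 104 and 99.9 CPM in NC, 220.0 and 219.9 CPM with P1-a2 and 154 and 140.1 CPM with P2-a8 in Panc10.05. In BxPC3, WDR43 was at 65.6 and 74 CPM in NC, 79.7 and 76.9 CPM with P1-a2 and 60.1 and 65.3 CPM with P2-a8. It rose in Panc10.05 (1.11 ± 0.06 standard error, adjusted p = 1.5e-19) and was at 0.16 ± 0.07 (standard error, adjusted p = 0.109) in BxPC3. RRP9, a protein specific to the U3 particle, was at 44.6 and 44.2 CPM in NC, 82 and 81.8 CPM with P1-a2 and 45.7 and 47.5 CPM with P2-a8 in Panc10.05. In BxPC3, RRP9 was at 35.5 and 36.8 CPM in NC, 47 and 46.9 CPM with P1-a2 and 31.4 and 35.2 CPM with P2-a8. In AsPC-1, RRP9 was at 71.6 and 53.4 CPM with sgNC, 59.3, 45.4, 74.3 and 58.8 CPM with sgP1, 67.3, 55.3, 70.4 and 56.7 CPM with sgP2 and 38.1, 34.6, 37.7 and 31.3 CPM with sgDual. In Panc10.05 both P1-a2 libraries were far above the other 4, which lay close together. RRP9 rose by 0.88 ± 0.07 (standard error, adjusted p = 3.16e-15) in Panc10.05, where its neighbours were at -0.04. The rise in BxPC3 was 0.38 ± 0.08 (standard error, adjusted p = 0.00284), and RRP9 had the largest fall with sgDual (-0.82 ± 0.17 standard error, adjusted p = 0.00169).

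UTP20 is a large scaffold of the same complex. It was at 80.2 and 70.8 CPM in NC, 91.1 and 84.2 CPM with P1-a2 and 85.3 and 79.5 CPM with P2-a8 in Panc10.05. In BxPC3, UTP20 was at 38.5 and 37.8 CPM in NC, 36.2 and 34.8 CPM with P1-a2 and 32.7 and 30.5 CPM with P2-a8. In AsPC-1, UTP20 was at 166 and 136 CPM with sgNC, 120.2, 101, 171 and 108 CPM with sgP1, 129, 109.8, 119.5 and 117 CPM with sgP2 and 112, 99.1, 111 and 102 CPM with sgDual. Both sgNC values were higher than those of sgP2 and sgDual, while sgP1 spanned both. Its rise in Panc10.05 was small (0.21 ± 0.07 standard error, adjusted p = 0.00611), and in AsPC-1 it passed for sgDual against sgNC (-0.51 ± 0.16 standard error, adjusted p = 0.023) but not against sgP1 (-0.24 ± 0.13 standard error, adjusted p = 0.173) or sgP2 (-0.16 ± 0.13 standard error, adjusted p = 0.335). NAT10, which acetylates cytidines of small subunit rRNA, was at 172 and 163 CPM in NC, 189 and 183 CPM with P1-a2 and 152 and 147 CPM with P2-a8 in Panc10.05. In BxPC3, NAT10 was at 134 and 130.4 CPM in NC, 113 and 112 CPM with P1-a2 and 118 and 116 CPM with P2-a8. It rose under P1-a2 in the first line (0.15 ± 0.06 standard error, adjusted p = 0.0236) and fell in the other (-0.24 ± 0.05 standard error, adjusted p = 0.00564), and the difference between lines passed (0.40 ± 0.08 standard error, adjusted p = 0.000365). UTP15 and NOP14 rose in both lines, UTP15 by 0.79 and 0.29 and NOP14 by 0.26 and 0.21.

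Late small subunit factors take the particle to the cytoplasm. RRP12, needed for export, was at 105 and 96.1 CPM in NC, 231 and 233 CPM with P1-a2 and 128 and 128 CPM with P2-a8 in Panc10.05. In BxPC3, RRP12 was at 46.5 and 49.1 CPM in NC, 70.2 and 68.9 CPM with P1-a2 and 42.2 and 43.1 CPM with P2-a8. In AsPC-1, RRP12 was at 134 and 111 CPM with sgNC, 119, 99.1, 137 and 109 CPM with sgP1, 130.0, 112, 131 and 115 CPM with sgP2 and 104, 92.3, 98 and 95.7 CPM with sgDual. P1-a2 was far above both other groups in each induced line. RRP12 rose by 1.21 ± 0.06 (standard error, adjusted p = 6.72e-21) (Panc10.05) and 0.54 ± 0.06 (standard error, adjusted p = 7.01e-05) (BxPC3), and P1-a2 exceeded P2-a8 by 0.86 ± 0.06 (standard error, adjusted p = 1.53e-15) and 0.71 ± 0.06 (standard error, adjusted p = 3.88e-05), in BxPC3 the largest such difference of the 36. Its fall with sgDual was among the smaller ones (-0.33 ± 0.11 standard error, adjusted p = 0.035) and its fall against sgP1 was lost in 13 of 24 alternatives. BYSL, or bystin, was at 93.4 and 89.3 CPM in NC, 109 and 107 CPM with P1-a2 and 87.5 and 79.7 CPM with P2-a8 in Panc10.05. In BxPC3, BYSL was at 23.9 and 26.4 CPM in NC, 31.7 and 33 CPM with P1-a2 and 20.6 and 23.4 CPM with P2-a8. In AsPC-1, BYSL was at 34.8 and 28 CPM with sgNC, 34.3, 26.6, 36.3 and 30.6 CPM with sgP1, 35.2, 28.1, 37.8 and 28.6 CPM with sgP2 and 25.3, 22.3, 24.2 and 22.5 CPM with sgDual. P1-a2 was again the highest group in both lines, with rises of 0.24 ± 0.06 (standard error, adjusted p = 0.000924) and 0.36 ± 0.09 (standard error, adjusted p = 0.0104). TSR1 rose in Panc10.05 (0.33) and was at 0.08 ± 0.06 (standard error, adjusted p = 0.313) in BxPC3. LYAR did not pass for P1-a2 against NC in either line (0.09 ± 0.06 standard error, adjusted p = 0.234 and 0.12 ± 0.10 standard error, adjusted p = 0.408), fell under P2-a8 in Panc10.05 (-0.32 ± 0.06 standard error, adjusted p = 3.93e-05), and was at 52.1 and 41.3 CPM with sgNC and 27.7, 25.7, 27.9 and 26.6 CPM with sgDual (-0.79 ± 0.16 standard error, adjusted p = 0.00172).

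PES1, BOP1 and WDR12 form the PeBoW complex, which is needed to process the large subunit precursor. PES1 was at 163 and 162 CPM in NC, 208 and 219 CPM with P1-a2 and 157 and 158 CPM with P2-a8 in Panc10.05. In BxPC3, PES1 was at 105 and 109 CPM in NC, 133 and 129 CPM with P1-a2 and 104 and 102 CPM with P2-a8. In AsPC-1, PES1 was at 197 and 166 CPM with sgNC, 170.1, 151, 190.0 and 169.9 CPM with sgP1, 179.8, 171, 198 and 181 CPM with sgP2 and 120.5, 108, 119.7 and 111 CPM with sgDual. WDR12 was at 56.1 and 52.4 CPM in NC, 84.7 and 82.6 CPM with P1-a2 and 59.3 and 56 CPM with P2-a8 in Panc10.05. In BxPC3, WDR12 was at 36.6 and 35 CPM in NC, 51.7 and 52.3 CPM with P1-a2 and 35.1 and 32.8 CPM with P2-a8. In AsPC-1, WDR12 was at 95.1 and 85.8 CPM with sgNC, 80.8, 69.5, 88.8 and 83.3 CPM with sgP1, 82.4, 78, 79.9 and 73.1 CPM with sgP2 and 61.4, 56.5, 59.6 and 61.4 CPM with sgDual. Both genes were highest under P1-a2 in each induced line, with NC and P2-a8 close together. PES1 rose by 0.40 ± 0.06 (standard error, adjusted p = 1.46e-07) and 0.29 ± 0.05 (standard error, adjusted p = 0.00168), and WDR12 by 0.62 ± 0.07 (standard error, adjusted p = 6.42e-11) and 0.54 ± 0.07 (standard error, adjusted p = 0.000159), in Panc10.05 and BxPC3. BOP1, which binds both partners, was at 202 and 193 CPM in NC, 176 and 189.6 CPM with P1-a2 and 193 and 199 CPM with P2-a8 in Panc10.05. In BxPC3, BOP1 was at 77.9 and 70.9 CPM in NC, 96.8 and 92.2 CPM with P1-a2 and 78.3 and 67.5 CPM with P2-a8. In AsPC-1, BOP1 was at 208 and 179 CPM with sgNC, 171, 159, 218 and 193 CPM with sgP1, 181, 171, 187 and 180.1 CPM with sgP2 and 124, 107, 116 and 97.7 CPM with sgDual. In Panc10.05 the P1-a2 libraries of BOP1 were the lowest, and in BxPC3 they were the highest. It was at -0.11 ± 0.06 (standard error, adjusted p = 0.102) in the first line and rose in the other (0.35 ± 0.08 standard error, adjusted p = 0.00554), and the difference between lines passed (-0.45 ± 0.10 standard error, adjusted p = 0.000773). With sgDual all 3 fell, PES1 by 0.66 ± 0.09 (standard error, adjusted p = 9.2e-05), BOP1 by 0.80 ± 0.11 (standard error, adjusted p = 0.000105) and WDR12 by 0.60 ± 0.09 (standard error, adjusted p = 0.000113).

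**Figure D4:**
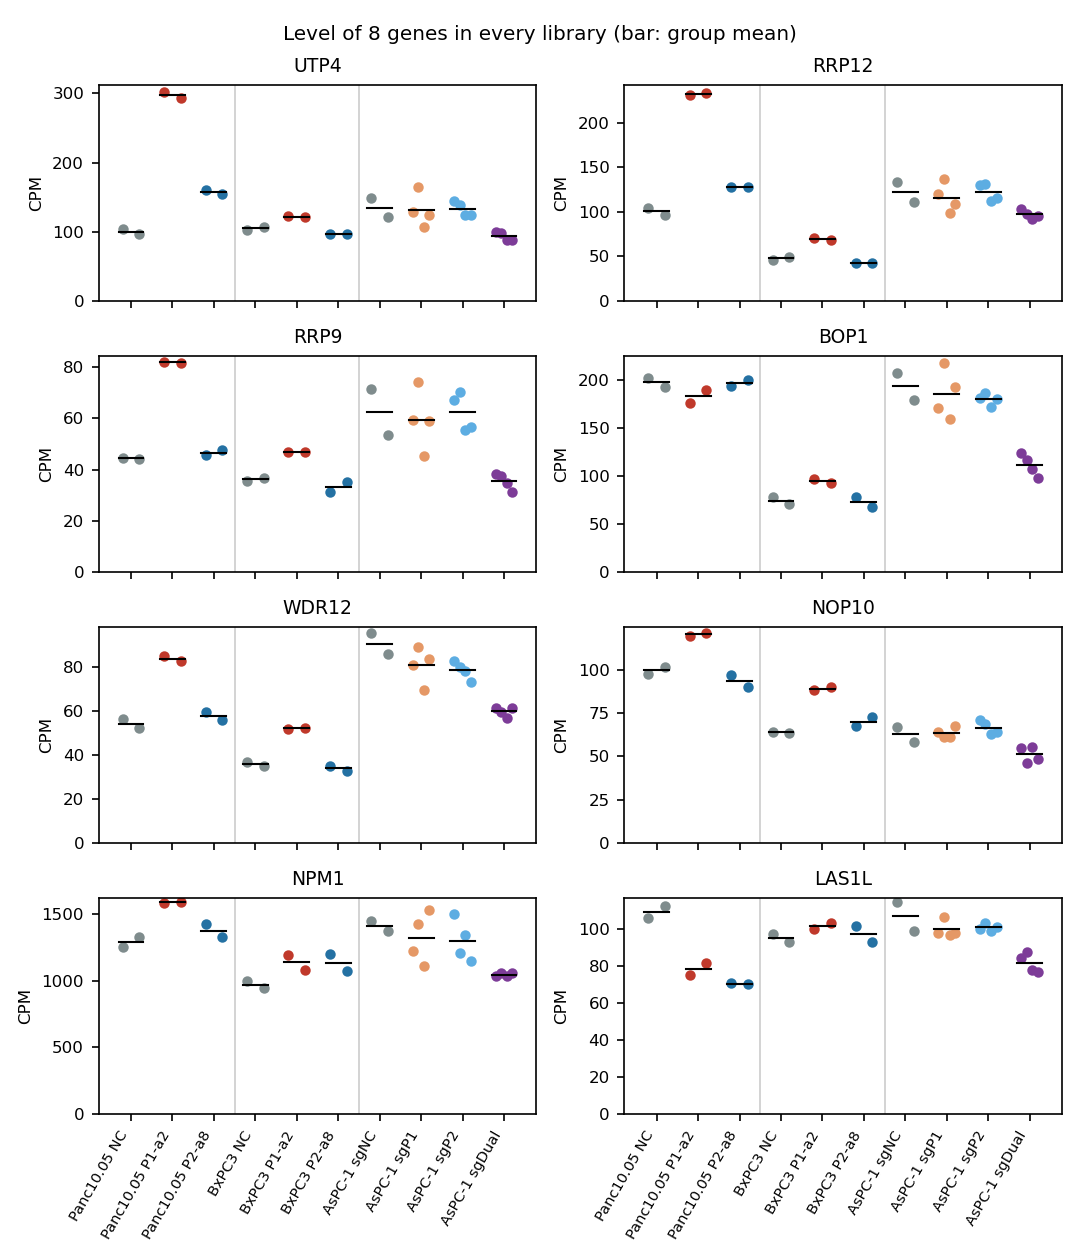
Level of 8 genes in each library (CPM, one panel per gene, vertical axis from 0), grouped by line and by isoform or guide target; each point is 1 library and each bar the mean of a group. UTP4 and RRP12 show the widest gap between P1-a2 and the other groups of Panc10.05, BOP1 differs in its order between Panc10.05 and BxPC3, and LAS1L is highest in NC in Panc10.05.

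Large subunit factors were mixed. NOP2, an rRNA methyltransferase and a marker of proliferating nucleoli, was at 15.9 and 14 CPM in NC, 22.2 and 21.4 CPM with P1-a2 and 15.8 and 17.5 CPM with P2-a8 in Panc10.05. In BxPC3, NOP2 was at 11.3 and 11.8 CPM in NC, 13.9 and 14.1 CPM with P1-a2 and 9.52 and 10.4 CPM with P2-a8. In AsPC-1, NOP2 was at 11.4 and 9.28 CPM with sgNC, 11.5, 9.15, 12.3 and 9.55 CPM with sgP1, 13.7, 9.63, 13.4 and 12.6 CPM with sgP2 and 6.95, 7.37, 6.15 and 6.81 CPM with sgDual. It rose in Panc10.05 (0.54 ± 0.09 standard error, adjusted p = 3.2e-06), was at 0.28 ± 0.10 (standard error, adjusted p = 0.0626) in BxPC3 and fell with sgDual (-0.60 ± 0.15 standard error, adjusted p = 0.00706), and the gene that shares its exons was at 0.0161 to 0.048 CPM in the controls. How reads in the shared exons were counted is not given, so that value does not show how far the level of NOP2 is affected. RRS1, which helps to load the smallest rRNA, was at 82.2 and 85.7 CPM in NC, 123 and 120.3 CPM with P1-a2 and 108 and 102 CPM with P2-a8 in Panc10.05. In BxPC3, RRS1 was at 38 and 44.7 CPM in NC, 44.9 and 41.3 CPM with P1-a2 and 30.2 and 35.1 CPM with P2-a8. In AsPC-1, RRS1 was at 57.5 and 45 CPM with sgNC, 50.8, 38.8, 64 and 46.2 CPM with sgP1, 58.6, 44.9, 58.8 and 46.5 CPM with sgP2 and 36.6, 34.2, 34.3 and 34.9 CPM with sgDual. In Panc10.05 both isoforms were above NC (0.54 ± 0.06 standard error, adjusted p = 6.42e-10 and 0.32 ± 0.06 standard error, adjusted p = 3.57e-05), while in BxPC3 P2-a8 was the lowest group. The lines differed in P2-a8 against NC (0.67 ± 0.11 standard error, adjusted p = 0.000139). PPAN was at 26.1 and 23.2 CPM in NC, 27.9 and 25.2 CPM with P1-a2 and 20.1 and 19.2 CPM with P2-a8 in Panc10.05. In BxPC3, PPAN was at 9.41 and 8.44 CPM in NC, 9.41 and 8.46 CPM with P1-a2 and 6.38 and 7.07 CPM with P2-a8. In AsPC-1, PPAN was at 12.1 and 10.5 CPM with sgNC, 11.5, 8.4, 12.8 and 12.5 CPM with sgP1, 11, 9.29, 11.9 and 10.8 CPM with sgP2 and 8.95, 8.23, 8.77 and 6.78 CPM with sgDual. In both induced lines P1-a2 and NC overlapped and P2-a8 was lower. P1-a2 exceeded P2-a8 in Panc10.05 (0.43 ± 0.09 standard error, adjusted p = 6.57e-05) and BxPC3 (0.41 ± 0.13 standard error, adjusted p = 0.0446), and the BxPC3 call was lost in 8 of 12 alternatives. In the same contrast PPAN-P2RY11 was at 0.94 (adjusted p = 0.00447) in Panc10.05 and -0.80 (adjusted p = 0.355) in BxPC3. P2RY11, which shares 3.76% of the exonic bases of PPAN, was at 0.90 (adjusted p = 1.38e-07) and 0.78 (adjusted p = 0.138). How far the level of PPAN is affected is not known here either.

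LAS1L, part of an endonuclease that cuts the large subunit precursor, was the 1 gene that fell in Panc10.05 under P1-a2. It was at 106 and 112 CPM in NC, 74.9 and 81.6 CPM with P1-a2 and 70.7 and 70.0 CPM with P2-a8 in Panc10.05. In BxPC3, LAS1L was at 97.1 and 92.7 CPM in NC, 99.9 and 103 CPM with P1-a2 and 101 and 92.7 CPM with P2-a8. In AsPC-1, LAS1L was at 115 and 99 CPM with sgNC, 98, 96.7, 107 and 97.7 CPM with sgP1, 100.1, 98.9, 103 and 101 CPM with sgP2 and 84.4, 77.7, 87.6 and 76.9 CPM with sgDual. Both NC libraries of Panc10.05 were above all P1-a2 and P2-a8 libraries, and LAS1L fell with both isoforms (-0.48 ± 0.06 standard error, adjusted p = 1.69e-08 and -0.63 ± 0.06 standard error, adjusted p = 5.82e-11). In BxPC3 the groups lay close together, and the lines differed for both contrasts (-0.57 ± 0.09 standard error, adjusted p = 2.25e-05 and -0.67 ± 0.09 standard error, adjusted p = 8.08e-06). WDR74 was at 73.9 and 73.3 CPM in NC, 107 and 107 CPM with P1-a2 and 72.3 and 72.6 CPM with P2-a8 in Panc10.05. In BxPC3, WDR74 was at 47.3 and 48.9 CPM in NC, 47.5 and 49.99 CPM with P1-a2 and 41.4 and 47.6 CPM with P2-a8. It rose in Panc10.05 (0.54 ± 0.06 standard error, adjusted p = 5.89e-10) and was at 0.02 ± 0.08 (standard error, adjusted p = 0.882) in BxPC3, with a difference between lines in P1-a2 against P2-a8 (0.44 ± 0.10 standard error, adjusted p = 0.00186). NOP16 rose in both lines (0.45 and 0.35). RRP1B was at 59.9 and 56.4 CPM in NC, 60.3 and 58 CPM with P1-a2 and 54 and 54.2 CPM with P2-a8 in Panc10.05. In BxPC3, RRP1B was at 67.1 and 64.8 CPM in NC, 66 and 66.4 CPM with P1-a2 and 54.5 and 57.4 CPM with P2-a8, where it fell under P2-a8 (-0.24 ± 0.06 standard error, adjusted p = 0.0396), a call that was lost in 5 of 12 alternatives.

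POLR1A and POLR1B are the catalytic subunits of RNA polymerase I. POLR1A was at 134 and 114 CPM in NC, 227 and 217 CPM with P1-a2 and 169 and 173 CPM with P2-a8 in Panc10.05. In BxPC3, POLR1A was at 89.1 and 88.8 CPM in NC, 101 and 99.5 CPM with P1-a2 and 79.1 and 81.9 CPM with P2-a8. In AsPC-1, POLR1A was at 262 and 223 CPM with sgNC, 214, 191, 235 and 172 CPM with sgP1, 222, 202, 221 and 211 CPM with sgP2 and 179, 167, 182 and 169 CPM with sgDual. The Panc10.05 groups did not overlap and were ordered NC, P2-a8, P1-a2. It rose by 0.84 ± 0.06 (standard error, adjusted p = 1.59e-14) there, with neighbours at 0.56, and by 0.18 ± 0.06 (standard error, adjusted p = 0.0308) in BxPC3, a call lost in 6 of 12 alternatives. POLR1B was at 82.6 and 76.6 CPM in NC, 116 and 110.1 CPM with P1-a2 and 83.1 and 82.9 CPM with P2-a8 in Panc10.05. In BxPC3, POLR1B was at 37.7 and 41.4 CPM in NC, 41 and 36.4 CPM with P1-a2 and 32.3 and 33 CPM with P2-a8. In AsPC-1, POLR1B was at 101 and 89.9 CPM with sgNC, 80.6, 62.5, 104 and 76.6 CPM with sgP1, 85.7, 76, 82.9 and 77.7 CPM with sgP2 and 72.9, 69.7, 76.6 and 70.9 CPM with sgDual. It rose in Panc10.05 (0.51 ± 0.06 standard error, adjusted p = 4.03e-09), and in BxPC3 its P1-a2 and NC libraries overlapped. In AsPC-1 both genes were lower with sgDual than with sgNC (-0.48 ± 0.10 standard error, adjusted p = 0.00227 and -0.40 ± 0.14 standard error, adjusted p = 0.0332). Against sgP1 they were at -0.22 ± 0.09 (standard error, adjusted p = 0.05), just over the threshold, and -0.16 ± 0.11 (standard error, adjusted p = 0.291), the latter with sgDual values inside the range of sgP1.

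Nucleolar matrix and multifunction proteins include the most abundant members. NCL, nucleolin, was at 1032 and 1048 CPM in NC, 1350.3 and 1351 CPM with P1-a2 and 1119 and 1051 CPM with P2-a8 in Panc10.05. In BxPC3, NCL was at 886 and 911 CPM in NC, 918 and 894 CPM with P1-a2 and 851 and 845 CPM with P2-a8. In AsPC-1, NCL was at 1509 and 1323 CPM with sgNC, 1234, 1089, 1527 and 1337 CPM with sgP1, 1369, 1187, 1339 and 1299.9 CPM with sgP2 and 946, 894, 968 and 880.1 CPM with sgDual. It rose in Panc10.05 (0.38 ± 0.06 standard error, adjusted p = 4.07e-07) and was at 0.01 ± 0.05 (standard error, adjusted p = 0.871) in BxPC3, where the P1-a2 and NC libraries overlapped. NPM1 was at 1249 and 1329 CPM in NC, 1581 and 1589.7 CPM with P1-a2 and 1424 and 1324 CPM with P2-a8 in Panc10.05. In BxPC3, NPM1 was at 993 and 943 CPM in NC, 1191 and 1081 CPM with P1-a2 and 1199 and 1071 CPM with P2-a8. In AsPC-1, NPM1 was at 1444 and 1368 CPM with sgNC, 1222, 1112, 1427 and 1528 CPM with sgP1, 1498, 1339.8, 1207 and 1144 CPM with sgP2 and 1030.5, 1032, 1059 and 1058 CPM with sgDual. NPM1 rose under P1-a2 in both lines (0.30 ± 0.06 standard error, adjusted p = 3.28e-05 and 0.23 ± 0.07 standard error, adjusted p = 0.0206), and in BxPC3 the P1-a2 and P2-a8 libraries overlapped (0.00 ± 0.07 standard error, adjusted p = 0.993). With sgDual NCL fell by 0.62 ± 0.11 (standard error, adjusted p = 0.000508) and NPM1 by 0.43 ± 0.12 (standard error, adjusted p = 0.0107).

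NOLC1, a chaperone of snoRNPs, was at 265 and 253 CPM in NC, 484 and 474 CPM with P1-a2 and 337 and 325 CPM with P2-a8 in Panc10.05. In BxPC3, NOLC1 was at 212 and 210.0 CPM in NC, 222 and 224 CPM with P1-a2 and 188 and 181 CPM with P2-a8. In AsPC-1, NOLC1 was at 414 and 324 CPM with sgNC, 313, 247, 408 and 292 CPM with sgP1, 386, 293, 342 and 308 CPM with sgP2 and 227, 206, 235 and 209 CPM with sgDual. The Panc10.05 groups did not overlap, and NOLC1 rose by 0.89 ± 0.06 (standard error, adjusted p = 4.66e-17) under P1-a2 and 0.35 ± 0.06 (standard error, adjusted p = 2.77e-06) under P2-a8. In BxPC3 P2-a8 was the lowest group (-0.20 ± 0.05 standard error, adjusted p = 0.0477, lost in 6 of 12 alternatives). DDX21, an RNA helicase, was at 396 and 359.9 CPM in NC, 617 and 606 CPM with P1-a2 and 483 and 451 CPM with P2-a8 in Panc10.05. In BxPC3, DDX21 was at 198 and 221 CPM in NC, 227 and 235 CPM with P1-a2 and 179 and 193 CPM with P2-a8. In AsPC-1, DDX21 was at 415 and 356 CPM with sgNC, 367, 275, 447 and 333 CPM with sgP1, 457, 344, 409 and 345 CPM with sgP2 and 288, 279.8, 279 and 274 CPM with sgDual. It rose with both isoforms in Panc10.05 (0.69 ± 0.06 standard error, adjusted p = 2.54e-13 and 0.30 ± 0.06 standard error, adjusted p = 5.02e-05), with neighbours at 0.36 for P1-a2, and its fall against sgP1 with sgDual (-0.34 ± 0.13 standard error, adjusted p = 0.0434) was lost in 15 of 24 alternatives. GNL3, the GTPase nucleostemin, was at 94.6 and 98.1 CPM in NC, 115 and 119 CPM with P1-a2 and 88.5 and 82.3 CPM with P2-a8 in Panc10.05. In BxPC3, GNL3 was at 91.9 and 96.2 CPM in NC, 86.7 and 86.5 CPM with P1-a2 and 75 and 79.4 CPM with P2-a8. In AsPC-1, GNL3 was at 96.9 and 94 CPM with sgNC, 87.5, 76.8, 104 and 99.4 CPM with sgP1, 91.7, 83.1, 85 and 82.9 CPM with sgP2 and 76.3, 71, 76.3 and 72.2 CPM with sgDual. It rose in Panc10.05 under P1-a2 (0.28 ± 0.06 standard error, adjusted p = 0.000149), and in BxPC3 NC was its highest group (-0.12 ± 0.06 standard error, adjusted p = 0.149 for P1-a2 and -0.29 ± 0.06 standard error, adjusted p = 0.0137 for P2-a8). MYBBP1A rose under P1-a2 in Panc10.05 (0.38) and in BxPC3 (0.16 ± 0.06 standard error, adjusted p = 0.0452), and the latter call was lost in 10 of 12 alternatives.

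A common pattern held for 21 of the 36 genes: P1-a2 exceeded P2-a8 in both Panc10.05 and BxPC3, which 5.67% of the 14523 genes tested in all 3 lines met. The combination with a fall under sgDual in AsPC-1 was met by 2.28% of the 14523 genes. All 36 genes fell there, so the fall was given for these 21 and adds nothing particular about them. They include 5 of the 7 processome genes (UTP4, UTP15, WDR43, RRP9 and NOP14), 3 of 4 late small subunit factors (BYSL, TSR1 and RRP12), PES1 and WDR12, DKC1 and NOP10, NOP56, POLR1A, the large subunit factors NOP2, NOP16, RRS1 and PPAN, and NOLC1, DDX21 and MYBBP1A. For P1-a2 against NC, 14 genes rose in both lines, and they fell with sgDual as all 36 did (3.32% of the 14523 genes met this combination). FBL, GAR1, LYAR, UTP20 and RRP1B were among the 15 outside the first pattern.

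The rest of the pathway was read from a list of 102 further ribosome biogenesis factors. Under P1-a2 against NC, 61 rose and 9 fell in Panc10.05, where 31.5% of all tested genes rose and 30.5% fell. In BxPC3 26 rose and 3 fell, against 17.1% and 14.9% of all tested genes. With sgDual 0 rose and 76 fell (median log2 -0.38), and 17.8% of all tested genes fell. Against P2-a8, 72 were higher and 2 lower under P1-a2 in Panc10.05 (22.2% and 24.7% of all tested genes), and 34 higher and 1 lower in BxPC3 (11.6% and 10.8%). In Panc10.05 the small subunit factor PNO1 (1.25), the large subunit factor NIP7 (1.19) and the endonuclease NOB1 (1.17) rose most, and the chromosomal neighbours of NIP7 and NOB1 were at 0.66 and 0.69. In BxPC3 EFL1 (0.97), EIF6 (0.75) and SBDS (0.51) rose most, 3 proteins of the last step of large subunit maturation. With sgDual the largest falls were those of TCOF1 (-0.87), PAK1IP1 (-0.82) and SBDS (-0.81). Among 18 further genes of RNA polymerase I and its factors, 10 rose and 4 fell under P1-a2 in Panc10.05 (all genes: 31.5% and 30.5%) and 6 rose and 3 fell in BxPC3 (all genes: 17.1% and 14.9%). With sgDual 0 rose and 6 fell, against 17.8% of all genes that fell, and POLR1E had the largest fall (-0.95 ± 0.15 standard error, adjusted p = 0.000231).

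The structural proteins of the ribosome were read beside its assembly factors. Of 79 cytosolic ribosomal protein genes, 56 rose and 2 fell under P1-a2 against NC in Panc10.05, and 71 were higher than under P2-a8, against 31.5%, 30.5% and 22.2% of all tested genes. In BxPC3, 4 rose and 13 fell against NC, beside 17.1% and 14.9% of all tested genes. Against P2-a8 in that line 1 was higher and 24 were lower, beside 11.6% and 10.8% of all tested genes. The difference between lines (Panc10.05 minus BxPC3) for P1-a2 against P2-a8 passed for 76 of the 79, all positive, where 8.81% of all tested genes passed as positive. With sgDual 0 rose and 4 fell (17.8% of all genes fell), with a median of -0.10 beside -0.53 for the 36 genes.

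MYC and genes of DNA replication moved with some of these results. MYC was at 239 to 245 CPM in Panc10.05 NC, 295 to 299 under P1-a2 and 177 to 179 under P2-a8. MYC thus rose under P1-a2 (0.30 ± 0.06 standard error, adjusted p = 2.29e-05) and fell under P2-a8 (-0.44 ± 0.06 standard error, adjusted p = 2.69e-08). In BxPC3 it was at 147 to 166, 160.1 to 160.5 and 126 to 154 CPM in the same order, and no contrast passed (0.20 ± 0.09 standard error, adjusted p = 0.171 for P1-a2 against P2-a8). In AsPC-1 it was at 249 to 279 CPM with sgNC and 169 to 179.6 with sgDual (-0.61 ± 0.11 standard error, adjusted p = 0.000627). Of 41 DNA replication genes, 5 rose and 31 fell under P1-a2 against NC in Panc10.05, 0 rose and 20 fell in BxPC3 and 0 rose and 38 fell with sgDual, with medians of -0.33, -0.32 and -0.65. Of all tested genes, 30.5%, 14.9% and 17.8% fell in these contrasts. Under P2-a8 against NC, 4 rose and 27 fell in Panc10.05 (median -0.27; 22.5% of all genes fell), where 9 of the 36 rose and 8 fell, and 1 rose and 0 fell in BxPC3 (median -0.10). In both induced lines more of the replication genes thus fell than rose under P1-a2, and in Panc10.05 also under P2-a8. Of the MYC network, MYC itself with its partners and relatives that were tested, 4 rose and 3 fell of 10 in Panc10.05 and 4 rose and 1 fell of 10 in BxPC3 under P1-a2 against NC, and 2 rose and 2 fell of 11 with sgDual, where 62.0%, 32.0% and 35.6% of all tested genes passed in either direction. MYC is 1 of the 4 that rose in Panc10.05 and 1 of the 2 that fell with sgDual. The part of MYC and of the replication genes in the results was not tested.

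**Figure D5:**
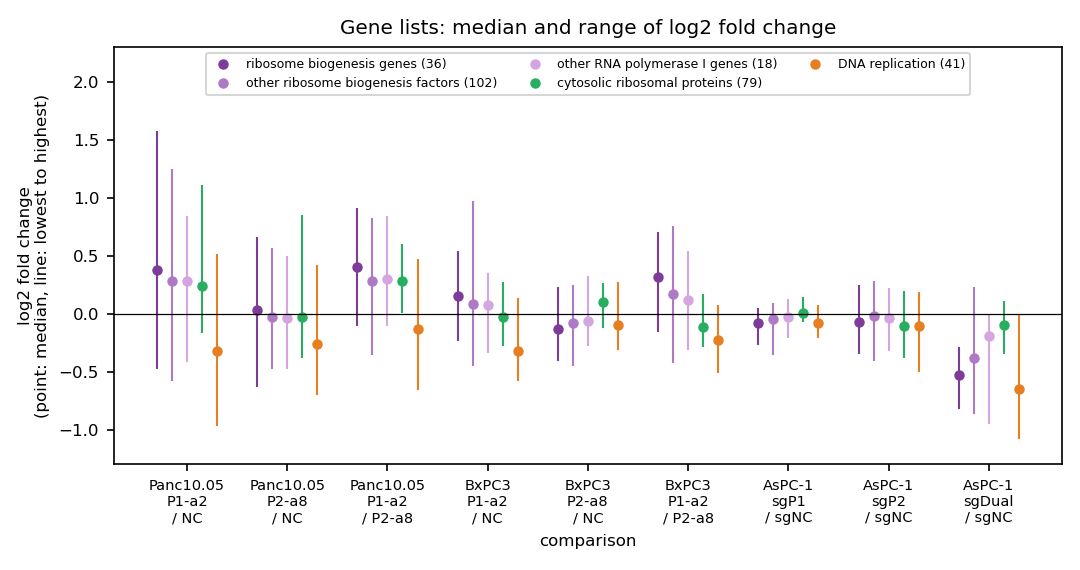
Log2 fold change of the 36 genes and of 4 comparison lists (colours; numbers of genes in brackets) in 9 contrasts, with the median as a point and the lowest to highest value as a line. The 36 genes have medians of 0.38 and 0.15 for P1-a2 against NC, where DNA replication genes have -0.33 and -0.32, and in sgDual against sgNC both medians are below 0.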

How the data were processed

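Poly(A) RNA of 26 libraries was prepared with a directional kit and read as paired ends on a NovaSeq, per the labels' protocols. The deposited values are raw read counts per Ensembl gene, 1 table per line; the submitters' processing notes name cutadapt 1.16, STAR 2.7.9a, featureCounts 1.6.3, DESeq2 1.36.0 and the build GRCh38, without their settings. Groups were taken from the sample labels. From the counts, each table was filtered with filterByExpr, scaled with TMM and tested with edgeR 4.0.16 (quasi-likelihood, robust, limma 3.58.1, R 4.3.3), with all groups of a line in 1 fit and Benjamini-Hochberg adjustment over all genes tested (threshold 0.05). In the AsPC-1 fit by target, the libraries of both guides of a target formed 1 group, so guides were not separate units in its p-values. Differences between Panc10.05 and BxPC3 came from a joint fit of 12 libraries, and guides from a fit with 1 group per guide. The 36 genes and all lists (further ribosome biogenesis factors, RNA polymerase I, ribosomal proteins, MYC network, DNA replication, markers) were chosen with earlier results of these data known. Values in every library are given for 1 to 3 leading genes of each role and for the 3 largest rises and falls past the threshold in each comparison. Levels per length used the union of exons. Promoter windows are those of RefSeq (GRCh38.p14). DESeq2 1.42.0, other scalings and filters, a size limit of 0.5, left-out libraries and guides, and a replicate block were the alternatives. Same-numbered libraries were compared by the correlation of their deviations from group means, which exceeded 0.1 in some pairs of BxPC3 and most pairs of AsPC-1 but in not every pair of any line. The labels do not tie same-numbered libraries, so the numbers were not taken as pairs. The procedure was tested on simulated counts. Tables were made with Python 3.11.15, pandas 2.3.3, numpy 2.4.6, scipy 1.17.1 and matplotlib 3.10.9.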

Additional observations from a re-analysis of the deposited data

Results flagged for a closer look

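The level of LAS1L in sgP1J replicate 1 stood apart from the other 3 sgP1 libraries of AsPC-1, at 106.66 CPM beside 97.995 CPM for the next. It was the only 1 of 111 such comparisons of a gene in a group of 4 to stand apart, and chance gives about 1 in 20.

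The responses of Panc10.05 and BxPC3 differed in a direct test (edgeR's quasi-likelihood test, log2 values, Panc10.05 minus BxPC3). Cell line, dose of doxycycline, control and count table cannot be told apart in it. For P1-a2 against NC, 21 of the 36 genes passed. UTP4 was at 1.371 (adjusted p = 1.29e-11), from 1.57 in Panc10.05 and 0.22 in BxPC3. WDR43 was at 0.9574 (adjusted p = 4.44e-08), from 1.11 in Panc10.05 and 0.16 in BxPC3. NOLC1 was at 0.8166 (adjusted p = 1.61e-08), from 0.89 in Panc10.05 and 0.08 in BxPC3. In the other direction, LAS1L was at -0.568 (adjusted p = 2.25e-05), from -0.48 in Panc10.05 and 0.10 in BxPC3. BOP1 was at -0.4479 (adjusted p = 0.000773), from -0.11 in Panc10.05 and 0.35 in BxPC3. For LAS1L and BOP1 the estimates of the lines had opposite signs.

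For P2-a8 against NC, 15 of the 36 passed. UTP4 was at 0.7771 (adjusted p = 3.99e-07), from 0.66 in Panc10.05 and -0.11 in BxPC3. WDR43 was at 0.685 (adjusted p = 1.61e-05), from 0.53 in Panc10.05 and -0.16 in BxPC3. RRS1 was at 0.6696 (adjusted p = 0.000139), from 0.32 in Panc10.05 and -0.34 in BxPC3. With a negative difference, LAS1L was at -0.6664 (adjusted p = 8.08e-06), from -0.63 in Panc10.05 and 0.03 in BxPC3. FBL was at -0.5563 (adjusted p = 0.000103), from -0.46 in Panc10.05 and 0.10 in BxPC3. NHP2 was at -0.2682 (adjusted p = 0.0299), from -0.13 in Panc10.05 and 0.14 in BxPC3.

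For P1-a2 against P2-a8, 12 of the 36 passed. FBL was at 0.6148 (adjusted p = 3.7e-05), from 0.44 in Panc10.05 and -0.16 in BxPC3. UTP4 was at 0.5934 (adjusted p = 1.53e-05), from 0.91 in Panc10.05 and 0.33 in BxPC3. WDR74 was at 0.4382 (adjusted p = 0.00186), from 0.56 in Panc10.05 and 0.13 in BxPC3. Here again BOP1 was at -0.468 (adjusted p = 0.00112), from -0.10 in Panc10.05 and 0.37 in BxPC3. The neighbours of UTP4 and WDR43 on the chromosome were also higher in Panc10.05, and their part in these differences was not tested.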

How the results depend on the processing

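Of 50 values of single genes, the largest rises and falls past the threshold in each comparison, none reversed its direction when it was recomputed. For the counts and medians a change of sign was not checked. Of the values of single genes, 738 kept their side of the threshold and 36 lost it, and of the counts of genes past the threshold 285 stayed within 1.5 times and 33 did not. Of the medians, 285 stayed within the spread and 21 did not. A size limit of 0.5 on the log2 difference cut the counts in Panc10.05 to 15 (P1-a2 against NC), 3 (P2-a8 against NC) and 9 (P1-a2 against P2-a8), in BxPC3 to 2, 0 and 3, and in AsPC-1 to 21 for sgDual against sgNC, 11 against sgP1 and 14 against sgP2. For BxPC3 P2-a8 against NC, with 3 calls, total counts alone gave 8 and no filter gave 7. DESeq2 gave 1 call for sgP2D against sgP2G and 1 for sgP2 against sgP1. Without guide sgP1J, sgP1 against sgNC had 3, and without guide sgP1E, sgP2 against sgP1 had 2. Leaving out 1 library at a time gave 1 to 6 calls for sgP1E against sgP1J, 11 to 36 for sgDual against sgNC, 0 to 1 for sgP1 against sgNC, 0 to 1 for sgP2 against sgP1, 7 to 15 for BxPC3 P1-a2 against NC, 0 to 6 for BxPC3 P2-a8 against NC and 5 to 12 for the difference between lines in P1-a2 against P2-a8. An arm left with 1 library is assumed to vary like the others. The cause was not tested. The lowest count of these genes in a library was 206, and most groups have 2 libraries.

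The correlation of same-numbered libraries exceeded 0.1 in 0 of 3 pairs of groups in Panc10.05, 2 of 3 in BxPC3 (0.0727 to 0.131) and 15 of 21 pairs of guides in AsPC-1 (0.0772 to 0.141 with an sgDual guide, 0.217 to 0.339 without). In AsPC-1 all 21 correlations were thus above 0, and in each arm 31 to 36 of the 36 genes were higher in replicate 1. The labels do not tie same-numbered libraries, so whether they share a source is not known. The main fit has no term for the replicate number, and this difference is part of its spread. With a replicate block, BxPC3 P2-a8 against NC had 14 calls, sgP2 against sgP1 had 1, sgP1E against sgP1J had 26 and sgP2D against sgP2G had 1. The block in the guide fit was added after the data were seen.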
